A study of Bos taurus with 16 samples.

Results

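The loci described here encode the cytosolic ribosomal proteins of cattle, measured from the mature oocyte to the blastocyst. They were chosen by name alone: a locus of the deposited table entered if its name began with RPL or RPS followed by a digit, or was RPLP0, RPLP1, RPLP2 or RPSA. The 10 loci with names beginning RPS6K, which encode kinases, were left out, and 0 loci had names ending in Y to be left out. This gave 89 loci with 85 different names out of 27393 loci in all. Of these, 53 belong to the large (60S) subunit and 36 to the small (40S) subunit by name. The letters of the rule also took in RPS19BP1, which encodes a protein that binds RPS19 and is not itself part of the ribosome. Paralogs such as RPL7L1 were taken in by name as well, which does not show that their proteins are part of the mature ribosome. Loci that share a name are told apart by the locus identifier of the deposited table.

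The study sequenced the RNA of single bovine oocytes and embryos that had matured and developed in vivo, with 2 samples at each of 8 stages. The stages were the mature metaphase II oocyte (MII), embryos of 2, 4, 8 and 16 cells (2C, 4C, 8C and 16C), the early morula (EM), the compact morula (CM) and the blastocyst (BL). No treatment was named for the 16 samples, and the breed and age of the animals were not given in the sources used here. The RNA of each oocyte or embryo was amplified 2 times before sequencing on the SOLiD platform, so each level is a share of amplified RNA, and a change in the RNA content of the whole embryo cannot be told apart from a change in the share of a gene. The study places embryonic genome activation (EGA), the start of major transcription from the embryo's own genome, between 4C and 8C, so the 6 samples of MII, 2C and 4C are called before EGA and the 10 samples of 8C, 16C, EM, CM and BL after EGA.

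A ribosome is built from ribosomal RNA and a large set of proteins that are nearly all needed in equal amounts. The mRNAs of these proteins carry a 5′ terminal oligopyrimidine (TOP) tract, through which their translation responds to growth signals. An oocyte stores ribosomes and mRNA for the early cleavages, and the embryo builds its own ribosomes once its genome is active.

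Between 607672 and 3379426 reads per sample were recovered from the deposited values, and 280563 of all these reads lay on the ribosomal protein loci. Levels are given in CPM, the reads of a locus per 1000000 reads of the sample, which are not divided by transcript length and therefore do not rank genes by number of molecules. A locus with 3 reads had between 0.888 and 4.94 CPM depending on the sample. This covers counting error only. Log2 changes were fitted by limma to the deposited values, after adding a pseudocount of 1 and taking log2. P-values were adjusted by Benjamini-Hochberg over all loci tested, with a threshold of 0.05. These log2 changes are understated for loci with few reads. Ribosomal protein genes have many near-identical processed copies, and how reads that map to several places were treated was not given in the sources used here, so the split of reads between a gene and its copies is uncertain.

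Both 2C replicate 1 and 8C replicate 2 stood apart from their partners. Across the 4412 loci with reads in every sample, 2C replicate 1 correlated with 2C replicate 2 at r = 0.82 and with the MII samples at 0.84 and 0.86. The correlation between the 8C samples was 0.80, and with 16C replicate 1 it was 0.88 for 8C replicate 1 and 0.77 for 8C replicate 2. At the ribosomal protein loci 2C replicate 1 was above 2C replicate 2 in CPM at 73 of 82 loci, and 8C replicate 2 was above 8C replicate 1 at 76 of 82. Partners of some other stages also differed in 1 direction, with 16C replicate 2 higher at 73, CM replicate 1 at 70 and BL replicate 1 at 67 of the 82 loci. EM replicate 2 was higher at 66 in CPM, but on the deposited scale replicate 1 was higher at 47 and replicate 2 at 35, and MII and 4C were less one-sided, with replicate 2 higher at 46 and 44. The main counts are also given without 2C replicate 1 and 8C replicate 2. Of markers, all 5 tested oocyte genes were lower after EGA, and 3 of 4 tested inner cell mass loci and 2 of 4 tested trophectoderm genes were higher, where 29.9% of all loci tested were lower and 36.9% higher. The trophectoderm factor CDX2 had 1 read in all samples together, and the summed CPM of the 4 blood genes was 0 before and at most 4.95 after EGA. Summed markers of cumulus cells, which surround the oocyte, ranged from 564 to 1989 CPM before and from 385 to 875 CPM after EGA. Most of this sum lay on STAR, with means of 1164 CPM before and 617 CPM after EGA. HAS2 had means of 174 and 2.99 CPM, and no other locus of these markers had a mean above 14.7 CPM in either period. The sum is therefore no measure of cumulus cell RNA, and the part of such cells in the results was not tested.

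The share of reads on ribosomal protein loci rose between 4C and 8C. The 6 samples before EGA held 2611 and 3569 CPM (MII), 6044 and 3312 CPM (2C) and 3371 and 4416 CPM (4C) on the 89 loci together. The 10 samples after EGA held 15599 and 26843 CPM (8C), 11535 and 13170 CPM (16C), 24368 and 23934 CPM (EM), 25364 and 18532 CPM (CM) and 29671 and 24673 CPM (BL). The lowest sum after EGA exceeded the highest before it. Among the samples before EGA 2C replicate 1 was highest, and after EGA the 16C samples were lowest. The mean sum was 3887 ± 1205 CPM (SD, n = 6) before and 21369 ± 6206 CPM (SD, n = 10) after EGA, or 0.389% and 2.14% of the reads. The ratio of these means was 5.50, or 2.46 on the log2 scale, and it was 2.59 on that scale without 2C replicate 1 and 8C replicate 2. It was 1.97 on the scale of the deposited values.

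**Figure D1:**
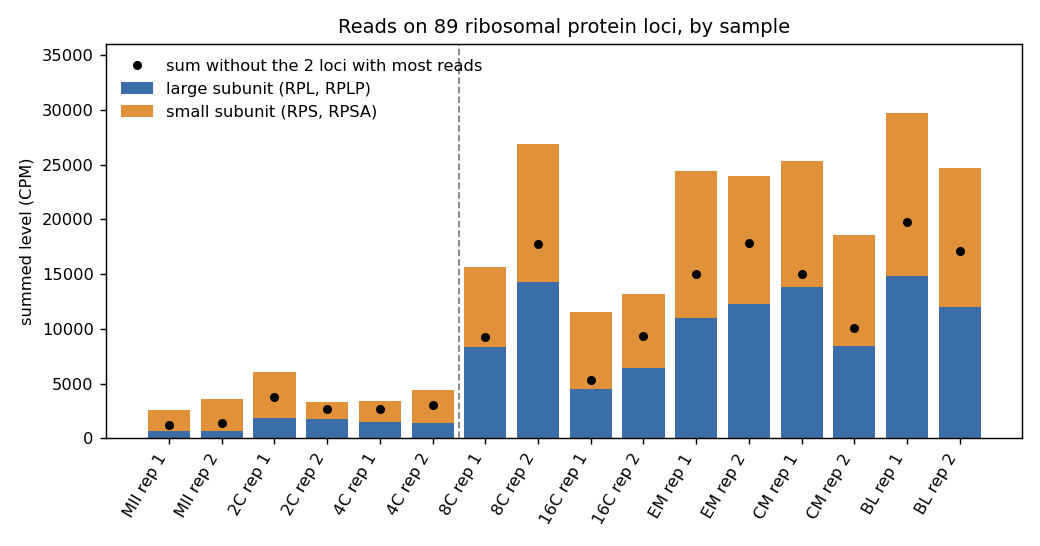
Summed level in CPM (y axis, from 0) of the 89 ribosomal protein loci in each of the 16 samples, with large-subunit and small-subunit loci stacked, and black points giving the sum without the 2 loci with most reads; the dashed line separates samples before and after EGA. The 6 bars before EGA end between 2611 and 6044 CPM and the 10 bars after it between 11535 and 29671 CPM.

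A pair of loci carried a large part of these sums. RPS20 (XLOC_014916), a protein of the head of the 40S subunit, had 70132 reads over all samples, and RPL28 (XLOC_024365), a protein of the 60S subunit, had 31328. Together they held between 19.9% and 60.6% of the sum before EGA and between 25.4% and 54.1% after it. Without both loci the summed level ranged from 1247 to 3788 CPM before and from 5293 to 19720 CPM after EGA, again without overlap. The summed large-subunit level divided by the summed small-subunit level ranged from 0.227 to 1.09 before and from 0.649 to 1.20 after EGA. Without both loci this ratio ranged from 0.740 to 1.45 before and from 1.22 to 1.52 after EGA. The ranges overlapped in both cases, and without both loci 2C replicate 2 was the only sample before EGA above the lowest sample after it. The median of the 82 tested loci ranged from 3.51 to 24.0 CPM before and from 47.1 to 223 CPM after EGA. The log2 ratio of the period means of this median was 4.11, larger than that of the sum.

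**Figure D2:**
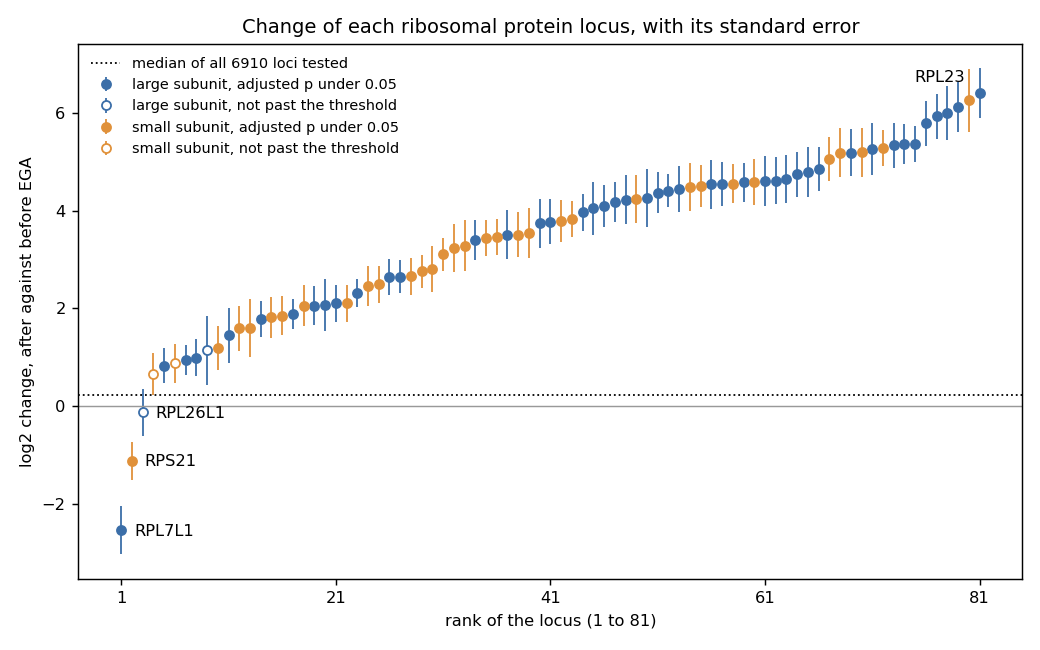
Log2 change after against before EGA (y axis) of the 81 tested ribosomal protein loci in order of their change (x axis, rank), with standard error bars, coloured by subunit and filled where the adjusted p was under 0.05. Nearly all points lie above the dotted median of all loci tested (0.23), RPL23 is highest at 6.40, and RPL7L1 and RPS21 are the 2 filled points below 0.

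Of the 81 ribosomal protein loci that could be tested between the periods, 75 were higher after EGA by limma, where 36.9% of all 6910 loci tested were higher. The 2 loci RPL7L1 and RPS21 were lower, against 29.9% of all loci, and 4 did not pass the test. The median log2 change of the 81 loci was 3.77, with quartiles of 2.10 and 4.60, and that of all loci tested was 0.23. Under scaling by total reads these medians were 4.13 and 0.67, so the distance between them changed little. The large-subunit loci were higher in 44 of 47 tested with a median log2 change of 4.22, and the small-subunit loci in 31 of 34 with a median of 3.26. The difference between the subunits was not tested. At 61 of the 81 loci every sample after EGA had a higher CPM than every sample before it, which held for 18.4% of all loci tested. On the deposited scale the count was 57, against 16.0% of all loci. At 0 of the 81 loci the reverse held, against 9.7% of all loci. Of the 75 loci called higher, 71 were called in each of 10 other planned fits and 70 in each of the 16 fits that left out 1 sample. The 5 others were RPL11, RPL21, RPL23A, RPS27L and RPS28. Without both 2C replicate 1 and 8C replicate 2, 74 loci were higher and 2 lower.

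The largest rise was that of RPL23 (XLOC_027991), a 60S protein that can also bind the p53 regulator MDM2. It had 12.9 and 0.876 CPM in MII, 24.6 and 0.592 CPM in 2C, and 7.64 and 6.14 CPM in 4C. After EGA its lowest, median and highest levels were 435, 663 and 1086 CPM. No sample after EGA came near the range before it, and its log2 change was 6.40 ± 0.51 (SE, limma adjusted p = 8.8e-10). RPS19, a 40S protein in which mutations cause Diamond-Blackfan anaemia in humans, had a lowest, median and highest level of 0, 0.526 and 27.3 CPM before and 40.9, 240 and 940 CPM after EGA. The 27.3 CPM belonged to 2C replicate 1 and the 940 CPM to 8C replicate 2, the samples that stood apart from their partners. Its log2 change was 6.26 ± 0.65 (SE, limma adjusted p = 4.0e-08).

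RPL38, a 60S protein that in the mouse is needed for translation of Hox mRNAs, had a lowest, median and highest level of 0, 1.59 and 21.3 CPM before and 94.3, 315 and 492 CPM after EGA. Its periods did not overlap, and the log2 change was 6.11. The other loci among the 10 with the largest rise were the 60S proteins RPL34 (log2 change 5.997), RPL13 (5.93), RPL14 (5.78), RPL10A (5.36), RPL36A (5.36) and RPL8 (5.33), and the 40S protein RPS3A (5.29). RPL14 had a lowest, median and highest level of 0, 0.367 and 4.66 CPM before and 22.4, 94.1 and 170 CPM after EGA. In RPL34, RPL13 and RPL14, as in RPS19 and RPL38, the highest sample before EGA was 2C replicate 1, at 16.6, 12.6 and 4.66 CPM. All 10 loci stayed higher after EGA in each fit without 1 sample.

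**Figure D3:**
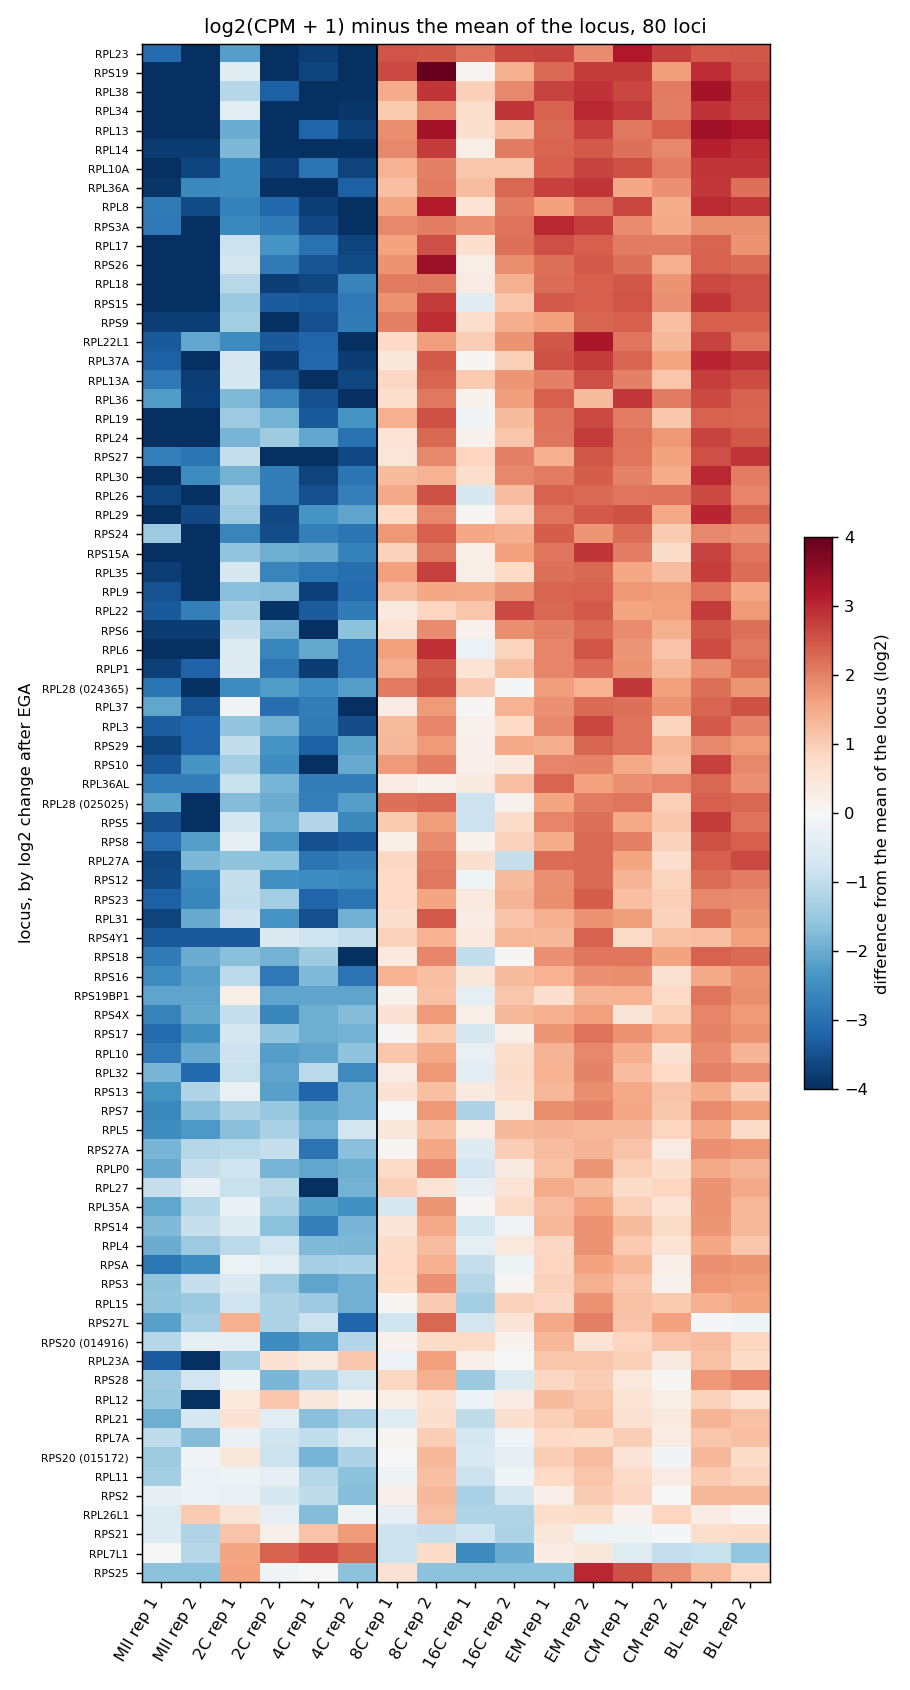
Level of 80 of the 82 tested ribosomal protein loci (rows, ordered by log2 change after EGA, with RPS25 last because it was not tested between the periods) in the 16 samples (columns), as log2(CPM + 1) minus the mean of the locus over all samples; blue is below and red above that mean, and the line separates samples before and after EGA. Most rows turn from blue to red at the line, the 16C columns are paler than the 8C and EM columns beside them, and the rows of RPL7L1 and RPS21 near the bottom run the other way.

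Before EGA 45 of the 81 loci had a mean under 10 CPM and 12 a mean over 50 CPM, and after EGA 1 and 76 did. The 1 locus still under 10 CPM was RPS19BP1. Loci with few reads before EGA could pass the filter on low counts through the samples after EGA, so these counts and those of higher loci are over loci that the filter kept. The order of the loci within a stage was kept within each period more than across it. Spearman's rho between the stage means of the 82 loci ranged from 0.81 to 0.89 among MII, 2C and 4C, from 0.73 to 0.91 among the 5 later stages, and from 0.37 to 0.56 between an earlier and a later stage. These are correlations across loci, which share libraries, depth and unequal transcript lengths.

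RPL5 and RPL11 enter the 60S subunit together with 5S rRNA and, when ribosome assembly fails, bind MDM2. RPL5 had a lowest, median and highest level of 24.4, 41.4 and 85.4 CPM before and 172, 346 and 425 CPM after EGA, without overlap, and a log2 change of 2.31 ± 0.28 (SE, limma adjusted p = 3.85e-07). RPL11 had 50.4, 98.5 and 136 CPM before and 89.6, 272 and 364 CPM after EGA. Its periods overlapped, and its log2 change of 0.83 ± 0.36 (SE, limma adjusted p = 0.046) did not pass the threshold in 19 of 27 other fits, with for example 0.79 under TMM scaling (adjusted p = 0.058) and 0.79 without 2C replicate 1 and 8C replicate 2 (adjusted p = 0.077). Of the P stalk, the arm of the 60S subunit that recruits elongation factors, RPLP1 rose by 4.18 on the log2 scale from a median of 4.12 to 151 CPM. RPLP0, the base of the stalk, rose by 2.10 from a median of 27.3 to 220.0 CPM, and neither of these overlapped between the periods in CPM, while RPLP0 did on the deposited scale. RPLP2 was listed at 0 in all samples.

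The 6 tested loci at the exit of the polypeptide tunnel were all called higher after EGA, with a median log2 change of 4.50 and a range from 1.45 to 5.26. The lowest was RPL23A, with means of 4.42 CPM in MII, 67.4 CPM in 2C, 121 CPM in 4C and 143 CPM in 8C. Its level thus rose before EGA, and its log2 change from 4C to 8C was -0.02. Its periods overlapped, and its call was not kept in every fit. At the head of the 40S subunit 13 of 14 tested loci rose (median 3.17), and at its body 15 of 17 rose and 1 fell (median 3.51). Of all loci tested, 36.9% were higher and 29.9% lower after EGA. RPL4, which lines the tunnel, rose by 1.89 from a median of 60.4 to 357 CPM. It did not overlap between the periods.

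RPS20 and RPL28 each have a pair of loci. RPS20 (XLOC_014916) had 1266 and 2138 CPM in MII, 2123 and 500 CPM in 2C, 597 and 1228 CPM in 4C, and from 3069 to 6928 CPM after EGA. The periods did not overlap in CPM, but did on the deposited scale, and the log2 change was 1.59 ± 0.45 (SE, limma adjusted p = 0.0039). The other RPS20 locus (XLOC_015172) had from 16.7 to 87.2 CPM before and from 40.9 to 161 CPM after EGA. It overlapped between the periods, and its log2 change of 0.88 had an adjusted p of 0.058 by limma, which passed the threshold under total-read scaling (1.35, adjusted p = 0.0075) and without both samples that stood apart (0.96, adjusted p = 0.045). The remaining loci that did not pass the test were RPS2 (log2 change 0.65), RPL12 (1.14) and RPL26L1 (-0.13), which were named after their values were seen except RPL26L1. RPL28 (XLOC_024365) had 98.8 and 25.4 CPM in MII, from 131 to 163 CPM in 2C and 4C, 3197 and 4425 CPM in 8C, 1509 and 732 CPM in 16C, and from 1981 to 5349 CPM in the later stages. At the other RPL28 locus (XLOC_025025) levels ran from 0.438 to 7.99 CPM before and from 15.5 to 154 CPM after EGA, and neither locus overlapped between the periods. Both rose, by 4.10 (XLOC_024365) and 3.74 (XLOC_025025) on the log2 scale.

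RPL7L1 and RPS21 fell. RPL7L1 (XLOC_039275), a paralog of the 60S protein RPL7, had 102 and 44.7 CPM in MII, 297 and 518 CPM in 2C, 615 and 495 CPM in 4C, 54.4 and 167 CPM in 8C, and 16.2 and 24.7 CPM in 16C. It then had 123 and 137 CPM in EM, 71.8 and 51.4 CPM in CM, and 53.0 and 33.8 CPM in BL. The 2C and 4C samples were above all others, and the MII samples lay within the range of the later stages. Its mean was 345 ± 235 CPM before and 73.3 ± 51.4 CPM after EGA, a log2 change of -2.54 ± 0.49 (SE, limma adjusted p = 0.000115).

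RPS21 (XLOC_012839), a protein of the 40S body, had 274 and 173 CPM in MII, 883 and 464 CPM in 2C, 884 and 1302 CPM in 4C, and 226 and 213 CPM in 8C. In BL it was back at 651 and 669 CPM. The periods overlapped, and the MII samples lay within the range of the stages after EGA. Its log2 change was -1.12 ± 0.39 (SE, limma adjusted p = 0.015), and it did not pass the threshold under total-read scaling (-0.64, adjusted p = 0.21) or without 4C replicate 2 (-0.90, adjusted p = 0.051).

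**Figure D4:**
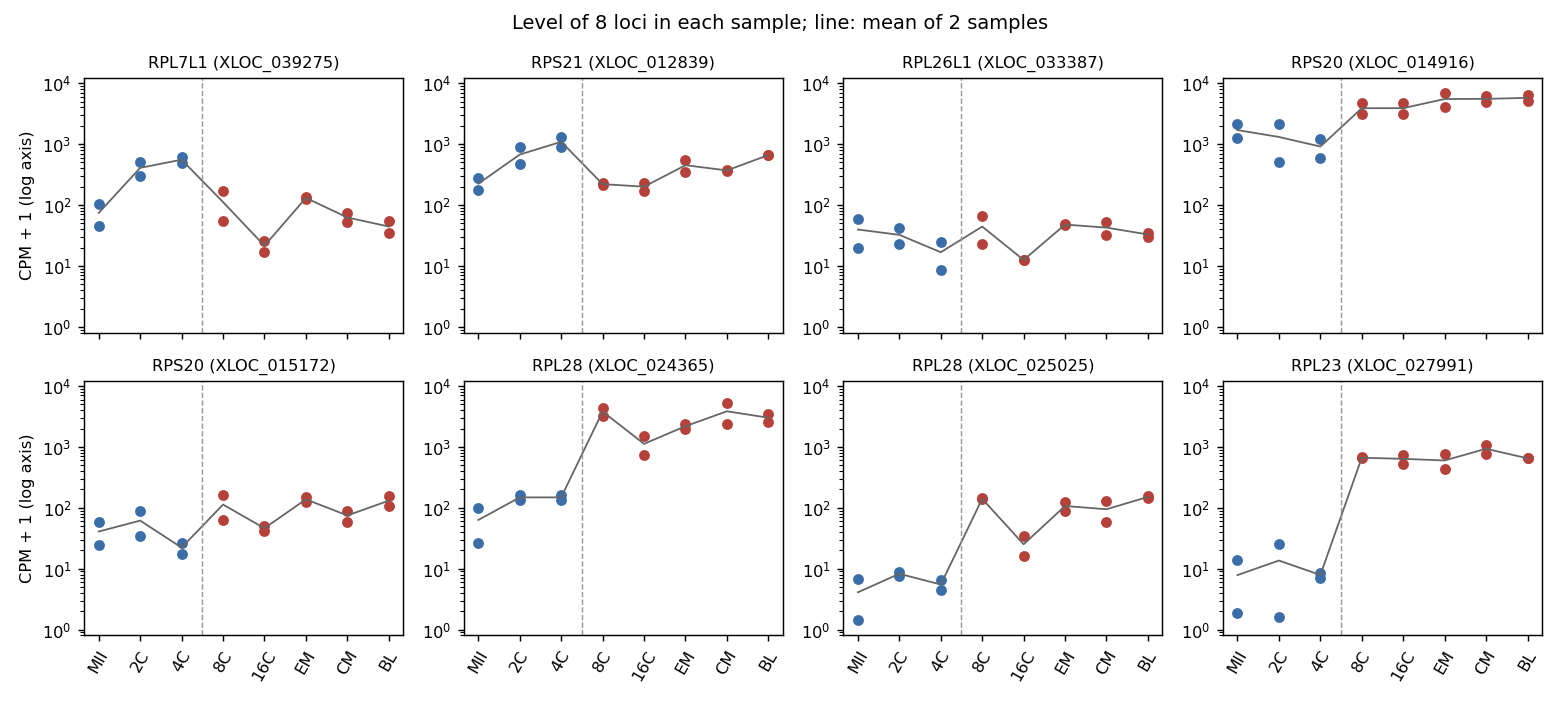
CPM + 1 (log axis) of 8 ribosomal protein loci in every sample (points, blue before and red after EGA) with the mean of the 2 samples of each stage (line); the dashed line lies between 4C and 8C. RPL7L1 and RPS21 peak at 4C, the RPL26L1 samples after EGA overlap those before it, and RPL23 and both RPL28 loci step up across it.

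The list of paralogs of ribosomal proteins held 8 names, of which RPL39L was not found among the loci. Of the 7 found, 5 could be tested between the periods, and 3 were higher and 1 lower after EGA, where 36.9% of all loci tested were higher and 29.9% lower. RPL22L1, a paralog of RPL22, rose by 4.85 on the log2 scale, from at most 5.70 CPM in the samples before EGA to at least 48.3 CPM after it. RPL36AL, a paralog of RPL36A, rose by 3.77, from at most 2.66 CPM to at least 6.73 CPM. RPS27L, a paralog of RPS27 and a p53 target gene, had a log2 change of 1.59 (limma adjusted p = 0.023) and overlapped between the periods, with 37.9 CPM in 2C replicate 1 and at most 6.94 CPM in the other samples before EGA. It did not pass the threshold with edgeR (adjusted p = 0.074). RPL26L1, which encodes a protein nearly identical to RPL26, had from 7.64 to 58.3 CPM before and from 11.5 to 64.4 CPM after EGA, with a limma adjusted p of 0.82. The ribosomal protein RPL26 itself was called higher with a log2 change of 4.55.

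RPS19BP1 had reads before EGA only in 2C replicate 1 (3.99 CPM) and from 2.32 to 17.7 CPM after EGA, with a log2 change of 2.81. RPL19 and RPS15A each had a main locus that rose, with log2 changes of 4.61 and 4.49. The other RPL19 locus (XLOC_064217) had 27 reads in all samples together and the other RPS15A locus (XLOC_024659) had 5, and neither was tested. RPS25 had 111 reads and was tested over the stages but not between the periods.

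The 5 loci RPL7, RPLP2, RPL39, RPL3L and RPL10L were listed at 0 in all samples. RPL3L and RPL10L are paralogs used mainly in striated muscle and testis. RPL7, RPLP2 and RPL39 encode proteins of every cytosolic ribosome, and their rows belong to a block of 2578 neighbouring rows that were all listed at 0, so nothing can be read from these values. The row of BMP15, an oocyte growth factor, lies in the same block.

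A change over the 8 stages was called for 77 of 82 tested ribosomal protein loci by limma's F test, against 66.7% of all 9670 loci tested. By mean CPM, 44 of the 82 loci were highest in BL, 28 in EM, 4 in CM, 4 in 8C and 2 in 4C. The lowest mean was in MII at 50 loci, in 4C at 28, in 16C at 3 and in 2C at 1. The comparison of consecutive stages placed nearly all called changes between 4C and 8C.

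**Figure D5:**
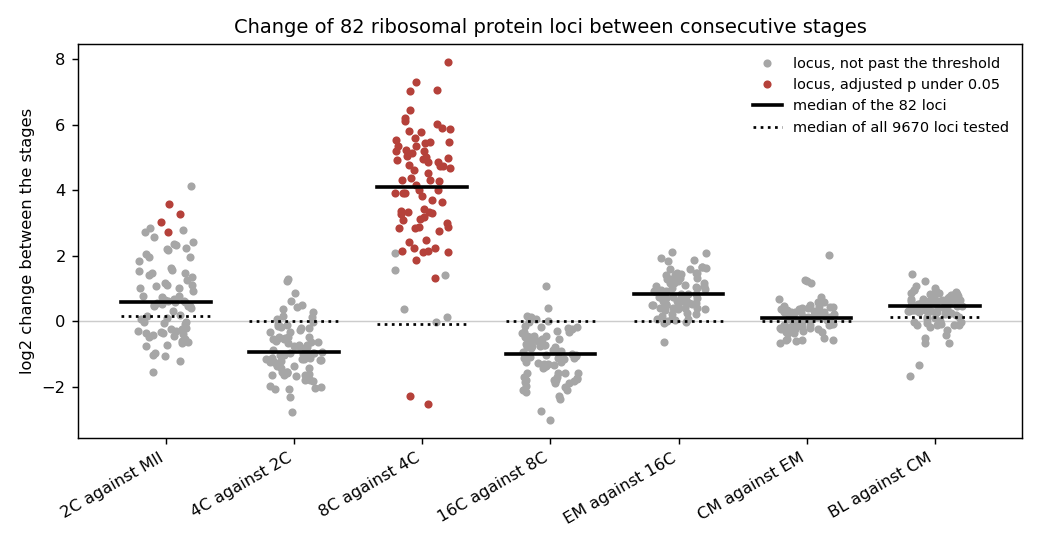
Log2 change (y axis) of the 82 tested ribosomal protein loci between consecutive stages (x axis), with red points for loci with an adjusted p under 0.05, a solid bar for their median and a dotted bar for the median of all loci tested. Red points lie almost wholly in 8C against 4C, where the solid bar is at 4.09 and the dotted bar at -0.08.

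Between 4C and 8C, 74 of the 82 loci were higher, against 17.7% of all loci tested, and 2 were lower, against 19.1%. Their median log2 change was 4.09 and that of all loci was -0.08. The 5 largest rises were those of RPS19 (7.92), RPL38 (7.31), RPL14 (7.06), RPL8 (7.04) and RPL23 (6.44). RPS19 had 2.08 and 0.615 CPM in 4C and 245 and 940 CPM in 8C, and RPL8, a protein close to the peptidyl transferase centre, had 1.39 and 0 CPM in 4C and 96.5 and 291 CPM in 8C. The 8C samples lay far above the 4C samples in both. The loci that were lower were RPL7L1 (-2.53, SE 0.56, limma adjusted p = 0.0032) and RPS21 (-2.29, SE 0.55, limma adjusted p = 0.0053). RPL7L1 did not pass the threshold in a fit of the 2 compared stages alone (adjusted p = 0.067), nor RPS21 without 4C replicate 2 (adjusted p = 0.056). The 6 loci that did not pass the test were RPL12, RPL21, RPL23A, RPL26L1, RPS25 and RPS4Y1. Of the 74 higher loci, 63 were called in each of the 16 fits without 1 sample and 55 in each of 9 other planned fits. Without 2C replicate 1 and 8C replicate 2 there were 70 higher and 2 lower loci.

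Between MII and 2C, 4 of the 82 loci were higher, where 1.2% of all loci tested were, and 0 were lower, against 0.217%. RPL17, at the tunnel exit, had 0.886 and 0 CPM in MII and 27.3 and 9.17 CPM in 2C (log2 change 3.59, limma adjusted p = 0.024). RPL24, which forms a bridge to the 40S subunit, had 0.443 and 0.438 CPM in MII and 10.6 and 14.8 CPM in 2C (3.02, limma adjusted p = 0.024). RPL19 (XLOC_027319) had 0.443 and 0 CPM and then 7.99 and 5.62 CPM (2.72, limma adjusted p = 0.046). In these loci both 2C samples lay above both MII samples, whose levels were below the 3-read floor. The RPL19 call was not kept with the replicate block (limma adjusted p = 0.059), with edgeR (adjusted p = 0.070) or with DESeq2 (adjusted p = 0.103). In a limma fit of MII and 2C alone none of the 4 loci passed, with adjusted p = 0.323 for RPL19, 0.327 for RPL24 and 0.380 for RPL17. The count was 2 with edgeR, 9 with DESeq2 and 15 under total-read scaling, so it depends on the method. It was 4 without both samples that stood apart, 2 without 2C replicate 1 alone and 1 without MII replicate 2.

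The remaining steps held no locus called by limma. From 2C to 4C the median log2 change was -0.95, 71 of 82 loci had a negative value, against 46.0% of all loci, and 18 had an unadjusted p under 0.05, against 4.56%. The 2C samples themselves differed as much, with a median log2 ratio of replicate 2 to replicate 1 of -1.05 on the deposited scale. Their sums were 6044 CPM (replicate 1) and 3312 CPM (replicate 2), beside 3371 and 4416 CPM in 4C. How far the fall rests on 2C replicate 1 was not tested. At this step 0.0% of all loci were called in either direction, and edgeR and DESeq2 called 0 of the 82. From 8C to 16C the median was -1.01, 76 of 82 loci were negative, against 48.3% of all loci, and 29 had an unadjusted p under 0.05, against 17.3%. Of all loci, 0.548% were higher and 0.31% lower at this step. DESeq2 called 7 of the 82 loci here and edgeR 0, and limma called 5 without 8C replicate 1.

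From 16C to EM the median was 0.82, 78 of 82 loci were positive, against 48.5% of all loci, and 17 had an unadjusted p under 0.05, against 11.0%. Of all loci, 0.0207% were called higher and 0.0827% lower. DESeq2 called 2 of the 82 and edgeR 0. The mean CPM in 16C was below the means of both 8C and EM at 71 of the 82 loci, which held for 35.9% of all loci tested. Both 16C samples lay below both 8C and both EM samples at 33 of the 82, against 10.5% of all loci tested.

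From EM to CM the median was 0.10, 0 of 82 loci had an unadjusted p under 0.05, against 5.02% of all loci, and 0.0% of all loci were called in either direction. From CM to BL the median was 0.47, 65 of 82 loci were positive, against 53.1% of all loci, and 1 had an unadjusted p under 0.05, against 18.1%. Of all loci, 2.92% were called higher and 1.5% lower. EdgeR and DESeq2 called 0 of the 82 loci at both steps.

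Ribosomal protein genes that the naming rule did not reach include GNB2L1 and FAU, and both were called higher after EGA. GNB2L1, which encodes the 40S protein RACK1, had a lowest, median and highest level of 0.876, 2.12 and 28.6 CPM before and 118, 360 and 539 CPM after EGA, a log2 change of 5.999. FAU, which encodes RPS30 joined to a ubiquitin-like protein, rose by 4.54 from a median of 5.76 to 142 CPM. Neither gene overlapped between the periods.

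Elongation factors and other genes known to carry a TOP tract were higher after EGA in 11 of 13 tested, with a median log2 change of 3.24, beside 36.9% and 0.23 for all loci. The 3 largest changes were those of the elongation factor subunits EEF1B2 (5.23) and EEF1D (4.87) and of the translocase EEF2 (4.17). NPM1 (0.61) and EIF3E (-0.21) did not pass the test. Among regulators of TOP mRNAs only 3 of 9 could be tested between the periods. LARP1, an RNA-binding protein that represses the translation of TOP mRNAs, rose by 3.36, and EIF4EBP2 (0.73) and RPS6KB1 (0.42) did not pass the test. Of chaperones of ribosomal proteins, 3 of 6 could be tested. BCCIP, a partner of RPL23, fell by 2.49 on the log2 scale, from 325 ± 120 CPM (SD, n = 6) to 80.6 ± 32.9 CPM (SD, n = 10), and HEATR3 (0.68) and PDCD2L (-0.01) did not pass the test.

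The proteins of the mitochondrial ribosome are also encoded in the nucleus. Of their 77 loci 60 could be tested between the periods, and 42 were higher and 2 lower after EGA, with a median log2 change of 2.05, where 36.9% of all loci were higher and 29.9% lower. From 4C to 8C, 27 of 69 tested were higher and 2 lower, with a median of 1.63, where 17.7% of all loci were higher and 19.1% lower. The corresponding medians of the cytosolic loci were 3.77 and 4.09, and the difference was not tested.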

How the data were processed

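Each locus of the table deposited by the authors holds a signal, the reads of a sample after division by a factor for that sample, with no division by length. According to the submitters' processing notes cutadapt, FastQC, TopHat, Cufflinks and HTSeq were used, without versions, and the genome build was not given in the sources used here. Values above 0 were whole multiples, within 0.01, of the lowest one in the same column for 100.0% of the values in each sample. This allowed whole reads to be recovered (607672 to 3379426 per sample), from which CPM were computed. Levels per length were not computed here.

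The test was limma 3.58.1 under R 4.3.3, with a trend, on log2(deposited value + 1), loci being kept by filterByExpr of edgeR 4.0.16, in 1 fit over the 8 stages and 1 over the periods before and after EGA. Named loci are the 10 largest rises and all falls after EGA, the 3 loci with most reads of each subunit, paralogs, the 5S particle, the P stalk, names with several loci, calls between consecutive stages and loci at 0. Some loci that this rule names are counted but not reported by name here. The members and lists were chosen with earlier results of these data known. All 85 names were found in a RefSeq gene table of assembly ARS-UCD2.0. The fits were checked on simulated counts.

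Alternatives were TMM and total-read scaling, a pseudocount of 0.5 or 5, all loci with any read, recovered reads tested with edgeR or DESeq2 1.42.0, a block for the replicate number, each sample left out, the compared stages alone, no 8C stage, stage means weighted equally and summed loci. Leaving out 2C replicate 1 and 8C replicate 2 together, and the 2 loci with most reads, was chosen after seeing the data. Replicates are separate oocytes or embryos by the labels, and nothing says whether they came from separate animals, so p-values measure the spread between these samples. Python 3.11.15 with numpy 2.4.6 and pandas 2.3.3 was used.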

Additional observations from a re-analysis of the deposited data

Results flagged for a closer look

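For each named locus the highest or lowest sample of a period was compared with the others by Dixon's test, and 13 of 70 groups of samples had a value set apart. Chance gives about 1 in 20 for independent groups. These groups share libraries and some hold values near 0, so the count is a description only. In 10 of the 13 the sample was 2C replicate 1, high among the 6 samples before EGA: RPS27L at 37.9 CPM (next sample 6.94), RPLP1 at 29.3 CPM (4.92), RPS19 at 27.3 CPM (2.08), RPL17 at 27.3 CPM (9.17), RPL38 at 21.3 CPM (4.14), RPL34 at 16.6 CPM (0.614), RPL13 at 12.6 CPM (4.86), RPL14 at 4.66 CPM (0.443), RPS19BP1 at 3.99 CPM (0) and RPL36AL at 2.66 CPM (0.888). These values lie below the lowest sample after EGA except for RPS27L and RPS19BP1. After EGA, RPS19 was set apart in 8C replicate 2 at 940 CPM (next 302) and RPL23 in CM replicate 1 at 1086 CPM (next 777). RPL19 (XLOC_064217) had 0.694 CPM in 4C replicate 1, below the 3-read floor, and 0 in the other samples before EGA. No cause of these values was tested.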

How the results depend on the processing

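Each stage had 2 samples, and 34 of the 82 tested loci had under 10 reads in both MII samples. The counts for the stage effect and for higher loci after EGA and in 8C kept within 1.5 times the reported ones under all alternatives run. The number of lower loci was 1 after EGA under total-read scaling and 1 in 8C against 4C with the compared stages alone. The calls in 2C against MII became 9 with DESeq2, 7 under TMM scaling, 2 with edgeR, 15 under total-read scaling, and 0 with a pseudocount of 5 or with the compared stages alone. In 16C against 8C DESeq2 gave 7 and a pseudocount of 5 gave 1, and in EM against 16C DESeq2 gave 2. The log2 ratio of the sums was 1.97 on the deposited scale, 1.94 under TMM scaling and 4.11 as a median over loci. The cause was not tested.

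Leaving out 1 sample at a time gave 73 to 81 loci with a stage effect, 71 to 76 higher and 1 to 2 lower after EGA, 66 to 76 higher and 1 to 2 lower in 8C than 4C, 1 to 7 in 2C against MII, 0 to 5 in 16C against 8C, and a log2 ratio of sums from 2.37 to 2.63. RPL26L1 changed sign, to 0.34 under total-read scaling, 0.04 without 16C replicate 2 and 0.25 without MII replicate 2, and ranged from -0.48 to 0.25 over the samples left out. Of 1800 values of single loci under alternatives, 1687 kept their call and direction, 103 lost the call, 7 gained it and 3 changed sign.

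Samples of the same replicate number showed little shared deviation: the correlation of their deviations over 4412 loci ranged from -0.30 to 0.13 for the 28 pairs of stages, and was above 0.1 for 2. The lowest value, -0.30, was that of MII and 2C, where samples of opposite replicate number tended to deviate together. A block for the replicate number does not take this up, and its part in the calls between MII and 2C was not tested. With the replicate number as a block, 74 loci were higher and 2 lower after EGA, 77 had a stage effect, 73 were higher in 8C than 4C and 3 differed between MII and 2C.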
